A study of Homo sapiens with 12 samples.

Results

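The response of serum-starved HCT116 cells to loss of KAP1 was measured by comparing 3 RNA-Seq libraries from cells given the dTAG ligand (dTAG-S0) with 3 from cells given the vehicle DMSO (DMSO-S0). HCT116 is a human colon cancer cell line. All cells carried the genotype KAP1_dTAG_CloneD5, a single clone in which KAP1 bears a degron tag that the ligand directs to the proteasome. In both groups the cells stood in serum-free medium for 48 h and received ligand or DMSO for 8 h. The other 6 of the 12 libraries came from the same clone and treatments with serum added for 30 min (DMSO-S30 and dTAG-S30, 3 each). They entered the count filter, the factor of unwanted variation and the shared estimate of the spread, and they are compared with the libraries without serum at the end. The comparison covers 13093 of 19901 protein-coding genes, those reaching 10 counts or more in 6 or more libraries of the 12.

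KAP1, encoded by TRIM28, is a scaffold protein without DNA-binding specificity of its own. KRAB zinc finger proteins bring it to DNA, where it recruits the histone methyltransferase SETDB1 and silences transposons, imprinted loci and zinc finger gene clusters. It is also found at promoters of active genes, together with the 7SK complex and paused RNA polymerase II. Cells in serum-free medium receive neither growth factors nor lipoprotein cholesterol, and their sterol genes are driven by the SREBP transcription factors, which are released from the endoplasmic reticulum when membrane sterol is low.

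The 12 libraries held 20537682 to 26278707 counts, and ERCC spike-in transcripts took 8.72 to 9.37% of the counts in the 6 libraries without serum. Spearman correlations between replicates of those groups lay between 0.997 and 0.998 over 6 pairs, and no pair agreed within counting noise. On the factor of unwanted variation estimated from the spike-ins, DMSO-S0 replicate 1 stood apart at -0.714, against -0.308 to 0.417 in the other 11 libraries. The labelled cell type was checked with marker genes. All 8 epithelial markers passed the count filter, with a summed level of 1235 to 1305 normalised CPM (counts scaled to library size) in DMSO-S0 and 1287 to 1416 in dTAG-S0. Of 7 intestinal markers only CDX2 passed it, and the 7 summed to 13.0 to 17.1 CPM over both groups. Fibroblast markers, 1 of 8 passing it, summed to 12.7 to 16.6 CPM over both groups, with LUM, PDGFRA and THY1 at 0 in all 6 libraries. Endothelial markers, 3 of 6 passing it, summed to 2.596 to 3.78 CPM. Leukocyte markers, 5 of 8 passing it, summed to 9.08 to 10.8 CPM, with MS4A1 at 0. No marker of any of these lists was called.

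TRIM28 (ENSG00000130726, hg38 chromosome 19, 58544091 to 58550722) was the targeted gene. Its transcript was at 99.1, 91.5 and 100 CPM in the 3 DMSO-S0 libraries and at 95.2, 85.5 and 97.2 CPM in the 3 dTAG-S0 libraries. The groups overlapped, with a log2 fold change of -0.06 ± 0.07 (SE, n = 3 against 3, adjusted p = 0.787, edgeR quasi-likelihood test). The ligand removes the protein and not the transcript, so these values do not check the depletion, and protein was not analysed here. No library came from untagged cells given the ligand, so loss of KAP1 and other effects of the ligand cannot be told apart.

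Treatment with ligand for 8 h without serum raised genes of cholesterol and fatty acid synthesis together with a few NF-kappaB targets. It lowered, among others, the receptors GPR176 and GPR15, the BMP pathway genes ID2 and SMAD9, and MORC2, ATF7IP and TASOR, which work with KAP1 in silencing. In all, 171 genes were called at an adjusted p under 0.05 (1.31% of those tested), 112 of them higher (0.855%) and 59 lower (0.451%). Every count of called list members given below is to be read against these shares. With library sizes from the spike-ins the total was 76, of which 15 were lower. That fit also left out the factor of unwanted variation, here and below. Leaving out 1 library gave 110 (without dTAG-S0 replicate 3) to 295 (without dTAG-S30 replicate 3), with 284 without dTAG-S0 replicate 2 and 281 without DMSO-S30 replicate 1. The changes were small. The median called gene rose by 27.7% or fell by 23.9%, and 95 of the 112 higher and 46 of the 59 lower genes changed by less than 1.5-fold. At least 2-fold changes were seen for 4 higher genes (CXCL8, BIRC3, CXCL1 and FGFBP1) and for 1 lower gene (GPR176). Over all genes tested the median log2 fold change was -0.01, and 90.5% changed by less than 1.2-fold. In bulk RNA a change of this size in every cell and a larger one in some cells cannot be told apart.

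**Figure D1:**
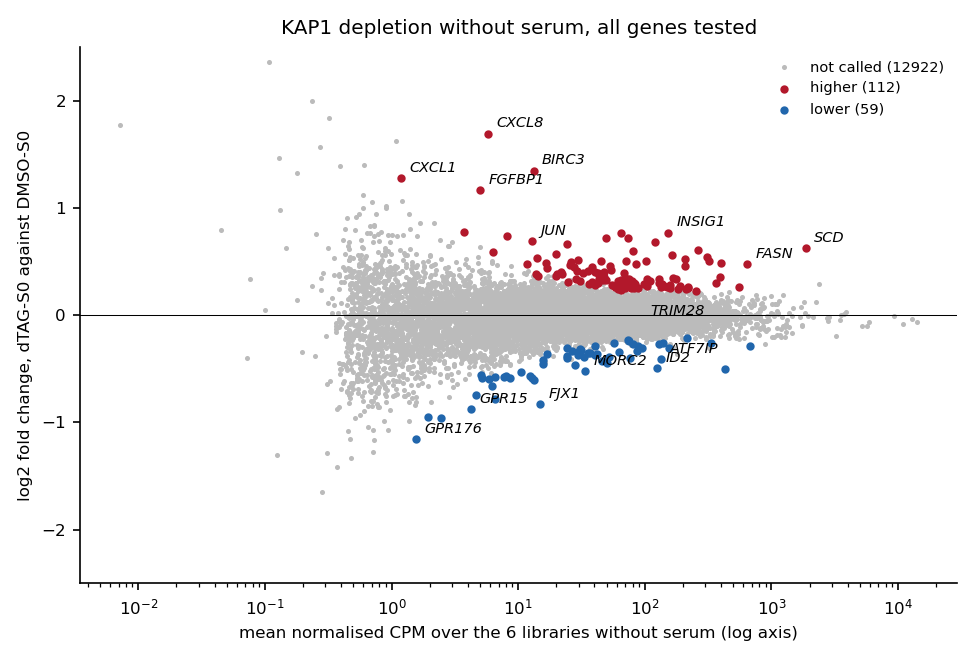
Log2 fold change of dTAG-S0 against DMSO-S0 (vertical) against mean normalised CPM over the 6 libraries without serum (horizontal, log axis), 1 point per gene tested. The 112 genes called higher are red and the 59 called lower are blue, and 1 gene that was not called lies beyond the axis limit of -2.5. CXCL8 and BIRC3 stand above the other called genes while TRIM28 lies near 0.

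The libraries of the 2 groups did not overlap for any of the 112 higher genes, and for 57 of the 59 lower genes, with DKK1 and GPM6A (named here after its values were seen) as the exceptions. Among all genes tested, 8.5% had all 3 dTAG-S0 libraries above all 3 DMSO-S0 libraries and 9.23% had them all below. The genes were called on these same libraries, so the separation follows in large part from the calls and adds no support to them. Genes called lower were longer, with a median of 63.1 kb from first to last annotated base, against 25.1 kb for genes called higher and 35.5 kb for all genes tested. Among the 3274 shortest genes, 33 were higher and 9 lower, with a median log2 fold change of 0.03. Among the 3273 longest genes, 16 were higher and 23 lower, with a median of -0.04. The counts cover whole genes, introns included, and whether length takes part in these calls was not tested.

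**Figure D2:**
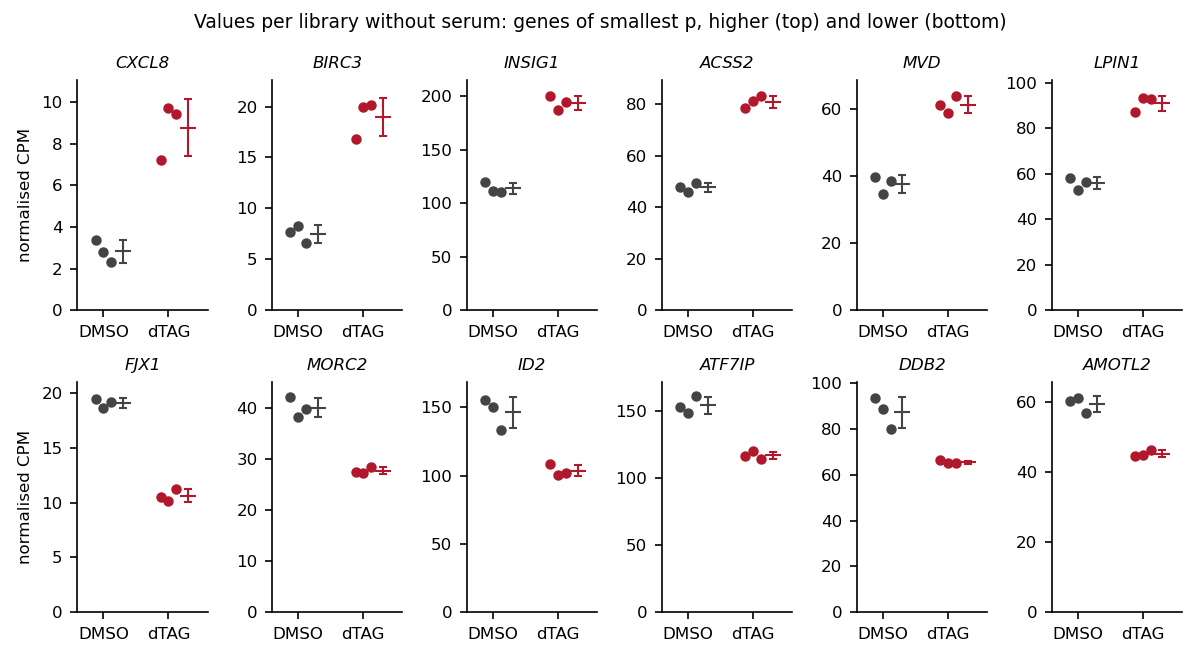
Normalised CPM in each of the 6 libraries without serum (points) with mean ± SD beside them (n = 3), for the 6 genes of smallest p among those higher (top) and lower (bottom). Every vertical axis starts at 0. The 12 genes were chosen among called genes whose DMSO and dTAG libraries do not overlap, so the separation is a condition of the choice. CXCL8 and BIRC3 show the widest gap.

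Cholesterol synthesis and uptake was the gene group with most calls. Of 24 tested members of a list of 25, 20 rose and none fell, and all 24 had a log2 fold change above 0, with a median of 0.49 against -0.01 for all genes tested. The other 4 were the transcription factor SREBF2 (log2 fold change 0.09), PMVK (0.02), SQLE (0.12) and TM7SF2 (0.10). CYP51A1 did not pass the count filter, with at most 2 counts in any of the 12 libraries. Whether this reflects its expression or the read counting was not tested. The number of calls in the list ranged from 17 to 20 over all alternatives in processing and left-out libraries.

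INSIG1 (ENSG00000186480, chromosome 7, 155297776 to 155310235), the endoplasmic reticulum protein that holds SREBP back when sterol is sufficient, had the largest rise of the list. Its level was 120, 111 and 110 CPM in DMSO-S0 and 200, 187 and 194 CPM in dTAG-S0. All dTAG libraries lay well above all DMSO libraries, a 1.71-fold difference (log2 0.77 ± 0.06, adjusted p = 2.82e-08).

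The enzymes rose along the length of the pathway. HMGCS1, which makes HMG-CoA, was at 212, 214 and 195 CPM in DMSO-S0 and at 315, 315 and 319 CPM in dTAG-S0 (log2 0.61 ± 0.06, adjusted p = 1.2e-06). Every dTAG library stood above the highest DMSO library. MVD, which makes isopentenyl diphosphate, was at 39.8, 34.8 and 38.7 CPM against 61.5, 58.8 and 64.0 CPM (log2 0.72 ± 0.07, adjusted p = 1.12e-07). DHCR7, the last step to cholesterol in one branch, was at 93.0, 95.2 and 89.9 CPM against 150, 134 and 159 CPM (log2 0.68 ± 0.07, adjusted p = 2.43e-07). Again neither gene's groups overlapped.

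The early enzymes ACAT2, MVK, IDI1 and FDPS rose by 0.59, 0.40, 0.52 and 0.28 on the log2 scale. ACAT2 overlaps TCP1 and SOD2, and MVK overlaps MMAB, so their counts may hold reads of those genes, since the strand setting of the counting is not given in the sources used here. Of the enzymes from squalene onward, FDFT1, LSS, MSMO1, NSDHL, HSD17B7, EBP and SC5D rose by 0.29 to 0.56. EBP overlaps another annotated gene on its own strand. The call of NSDHL was lost in 7 of 21 alternative fits, 4 of them without replicate 2 or 3 of DMSO-S0 or replicate 1 or 3 of dTAG-S0, with an adjusted p of up to 0.184. FDPS and SC5D each lost it in 2 fits, with spike-in library sizes and without dTAG-S0 replicate 3 (FDPS) or DMSO-S0 replicate 3 (SC5D). SQLE, the epoxidase between FDFT1 and LSS, was at 84.2, 81.7 and 81.8 CPM in DMSO-S0 and 88.7, 90.8 and 89.8 CPM in dTAG-S0 and did not pass the test (adjusted p = 0.43). The sterol carrier STARD4 rose by 0.51.

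Fatty acid synthesis genes moved with them. Of 17 tested, 11 rose and none fell, with a median log2 fold change of 0.33. With library sizes taken from the spike-ins 8 rose. ACSS2 (chromosome 20, 34872146 to 34927962), which turns acetate into acetyl-CoA, was at 47.8, 46.1 and 49.3 CPM in DMSO-S0 and 78.7, 81.2 and 83.3 CPM in dTAG-S0 (log2 0.76 ± 0.07, adjusted p = 5.55e-08). LPIN1, a phosphatidate phosphatase of triglyceride synthesis, was at 58.1, 53.02 and 56.5 CPM against 87.3, 93.2 and 92.7 CPM (log2 0.71 ± 0.06, adjusted p = 2.82e-08). Both genes were higher in each dTAG library than in any DMSO library.

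SCD, the desaturase that makes oleate, was the most abundant member, at 1525, 1413 and 1460.1 CPM in DMSO-S0 and 2232, 2079 and 2441 CPM in dTAG-S0, CPM not being corrected for gene length (log2 0.62 ± 0.08, adjusted p = 1.85e-05). FASN, the fatty acid synthase itself, was at 570, 503 and 556 CPM against 767, 657 and 823 CPM (log2 0.47 ± 0.08, adjusted p = 0.00157). The dTAG libraries were above the DMSO libraries in both, with dTAG-S0 replicate 2 the lowest of its group. ACLY, ELOVL6, FADS1, ACSL1, ACSL3, GPAM and PNPLA3 rose by 0.23 to 0.50. With spike-in library sizes ACSL3, GPAM and PNPLA3 were not called. GPAM also lost its call without replicate 3 of DMSO-S0, dTAG-S0 or DMSO-S30 or replicate 1 of dTAG-S0, and ACSL3 without replicate 3 of dTAG-S0 or DMSO-S30. The members that were not called were SREBF1 (log2 fold change 0.00), ACACA (0.17), ACACB (-0.16), ELOVL5 (0.16), FADS2 (-0.06) and ME1 (0.12). SREBF1 and SREBF2, which encode the SREBP factors, were therefore both without a call. ACSS2 overlaps GGT7 and FADS1 overlaps FADS2, each on the other strand, and PNPLA3 overlaps SAMM50 on its own strand.

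Further genes of lipid handling were among the calls outside the lists, chosen here after their values were seen. They were ERG28 (log2 fold change 0.40), TMEM97 (0.27), the lysosomal cholesterol transporter NPC1 (0.27), the lipoprotein receptor LRP8 (0.25), PCYT2 of phosphatidylethanolamine synthesis (0.46), GPAT3 (0.48), ACSL4 (0.29) and IDH1 (0.28).

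**Figure D3:**
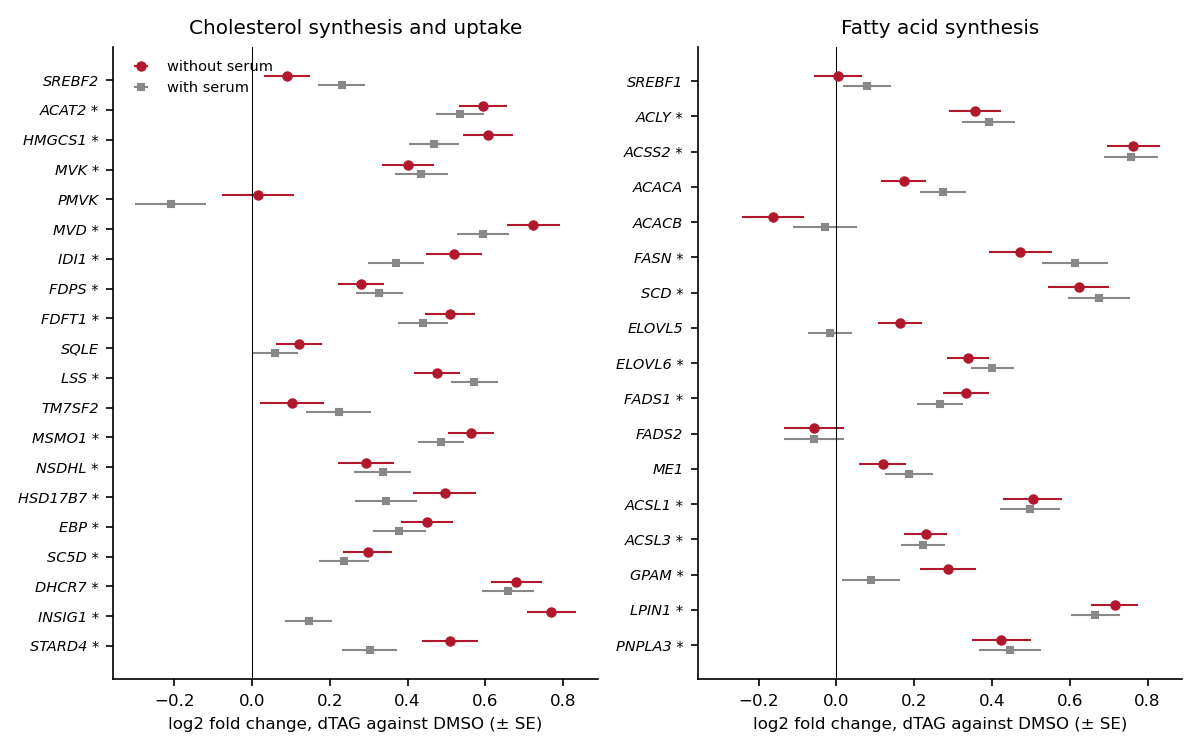
Log2 fold change (± SE) of dTAG against DMSO for 20 tested members of the cholesterol list (left, in pathway order) and the 17 of the fatty acid list (right), without serum (red circles) and after 30 min of serum (grey squares). An asterisk marks a gene called without serum (16 of the 20 plotted and 11 of 17), and INSIG1 lies at 0.77 without serum and 0.15 with serum.

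NF-kappaB dimers are held in the cytoplasm by IkappaB proteins and, once freed, switch on cytokines as well as their own inhibitors. Only 5 of 17 listed cytokine and adhesion targets passed the count filter, and 2 of the 5 rose, CXCL8 and CXCL1. CXCL8 (ENSG00000169429, chromosome 4, 73740506 to 73743716), the neutrophil chemokine interleukin 8, was at 3.39, 2.80 and 2.31 CPM in DMSO-S0 and at 7.19, 9.70 and 9.41 CPM in dTAG-S0, from 47 to 226 counts a library. This was the largest rise of any called gene, 3.23-fold (log2 1.69 ± 0.14, adjusted p = 2.82e-08), and the groups did not overlap. CXCL1, a related chemokine, was at 0.583, 0.734 and 0.736 CPM against 1.93, 1.34 and 1.83 CPM, which is 11 to 44 counts (log2 1.28 ± 0.29, adjusted p = 0.0202). Its call was lost without DMSO-S0 replicate 1, dTAG-S0 replicate 1 or dTAG-S0 replicate 3, with an adjusted p of up to 0.0905. CXCL2, CXCL3 and ICAM1 had log2 fold changes of 0.94, 1.0 and 0.26 and were not called.

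Of 21 tested NF-kappaB subunits and feedback genes 5 rose, against 0.855% of all genes tested, and none fell. The list had a median log2 fold change of 0.23, with 20 of 21 above 0. BIRC3 (ENSG00000023445, chromosome 11, 102317450 to 102339403), a ubiquitin ligase that limits cell death and noncanonical NF-kappaB signalling, was at 7.69, 8.30 and 6.57 CPM in DMSO-S0 and 16.8, 19.96 and 20.1 CPM in dTAG-S0. The dTAG values were more than double every DMSO value, a 2.55-fold rise (log2 1.35 ± 0.12, adjusted p = 3.77e-08). TRAF1, a signalling adaptor of tumour necrosis factor receptors, was at 2.597, 2.43 and 3.19 CPM against 5.13, 4.42 and 4.79 CPM (log2 0.78 ± 0.17, adjusted p = 0.0164). The subunits NFKB1 and RELB rose by 0.30 and 0.44, and the inhibitor NFKBIA rose by 0.33. These 3 were not called with spike-in library sizes or without dTAG-S0 replicate 3, and NFKBIA also not without replicate 1 or 2 of DMSO-S0 or dTAG-S0 replicate 1. Without DMSO-S0 replicate 2 neither RELB nor TRAF1 was called. RELA, TNFAIP3 and NFKB2 had log2 fold changes of -0.04, 0.40 and 0.32 without passing the test. The number of calls in the list was 2 with spike-in library sizes, without DMSO-S0 replicate 2 or without dTAG-S0 replicate 3, and up to 6 in other fits.

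The promoters of CXCL8 and BIRC3 are shown because these rose most among called genes whose promoters hold the kappaB letters given below. They are RefSeq sequences reaching from 250 bases before to 50 bases after the start site. Capitals mark matches on either strand to the kappaB letters GGNNNTTCC, which 23.0% of the 10410 available promoters of tested genes held. The share was 22.5% for the 89 promoters of genes called higher and 33.3% for the 51 of genes called lower. In CXCL8, capitals also mark a match to the AP-1 letters TGANTCA, held by 4.44% of the 10410.
CXCL8, GRCh38.p14 chr4:73740319-73740618, plus strand: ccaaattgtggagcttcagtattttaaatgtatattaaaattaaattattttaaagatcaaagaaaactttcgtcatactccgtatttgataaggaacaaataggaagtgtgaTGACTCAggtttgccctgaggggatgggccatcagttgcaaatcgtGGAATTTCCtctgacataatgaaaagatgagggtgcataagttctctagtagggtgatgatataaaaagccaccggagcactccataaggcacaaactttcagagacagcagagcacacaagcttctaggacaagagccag
BIRC3, GRCh38.p14 chr11:102317234-102317533, plus strand: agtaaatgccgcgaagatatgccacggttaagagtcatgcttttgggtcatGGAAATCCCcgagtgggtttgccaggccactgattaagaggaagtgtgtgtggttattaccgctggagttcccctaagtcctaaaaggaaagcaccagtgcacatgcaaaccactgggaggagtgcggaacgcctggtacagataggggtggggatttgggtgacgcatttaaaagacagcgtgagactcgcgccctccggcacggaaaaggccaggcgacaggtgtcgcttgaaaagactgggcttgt
A match describes the letters and not a bound site. Promoters were matched for 79.5% of the tested genes and 89 of the 112 higher genes, too few to test shares between gene sets.

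In the endoplasmic reticulum, unfolded protein activates XBP1 and ATF6, which raise chaperones, while ATF4 raises genes of amino acid supply. Of 23 tested genes of these responses 6 rose, against 0.855% of all genes tested. None fell, and the median log2 fold change was 0.20. The 6 were the factor XBP1, the chaperone HSPA5 with its helpers DNAJB9 and DNAJC3, asparagine synthetase ASNS and the cystine carrier SLC7A11. HSPA5, also called BiP, was at 326, 323 and 332 CPM in DMSO-S0 and 402, 381 and 425 CPM in dTAG-S0 (log2 0.30 ± 0.06, adjusted p = 0.01). XBP1 was at 38.5, 37.9 and 33.8 CPM against 48.1, 45.3 and 50.9 CPM (log2 0.39 ± 0.07, adjusted p = 0.00412). Neither gene's groups overlapped. ATF4, DDIT3 and HERPUD1 had log2 fold changes of 0.20, 0.02 and 0.24 and were not called. Called genes outside the lists that act in the same compartment, chosen after their values were seen, were HYOU1 (log2 fold change 0.35), DNAJB11 (0.32), MANF (0.33) and SEC24D (0.33). The count of 6 was 3 with spike-in library sizes and 4 without DMSO-S0 replicate 3. The likelihood ratio test called 9 of them and DESeq2 called 10, and 9 and 10 were called when DMSO-S30 replicate 1 or dTAG-S0 replicate 2 was left out. The call of DNAJB9 was lost in 11 of 21 alternative fits, and the gene overlaps PNPLA8 and THAP5 on the other strand.

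The RefSeq promoters of XBP1 and HSPA5 are shown for their match to the endoplasmic reticulum stress response element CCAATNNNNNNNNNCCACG. It was searched on both strands, is given in capitals, and was held by 12 of the 10410 promoters (0.115%). Among the 89 promoters of genes called higher 2 held it, those of XBP1 and HSPA5. Because both genes were chosen for holding the element, these shares are no test. A match describes the letters and not a bound site.
XBP1, GRCh38.p14 chr22:28800520-28800819, minus strand: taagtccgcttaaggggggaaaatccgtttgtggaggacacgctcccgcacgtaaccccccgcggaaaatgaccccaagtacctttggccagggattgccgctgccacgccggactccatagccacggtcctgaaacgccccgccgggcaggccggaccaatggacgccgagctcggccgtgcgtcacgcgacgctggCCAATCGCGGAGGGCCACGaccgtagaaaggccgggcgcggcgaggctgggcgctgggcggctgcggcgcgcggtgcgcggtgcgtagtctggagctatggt
HSPA5, GRCh38.p14 chr9:125241294-125241593, minus strand: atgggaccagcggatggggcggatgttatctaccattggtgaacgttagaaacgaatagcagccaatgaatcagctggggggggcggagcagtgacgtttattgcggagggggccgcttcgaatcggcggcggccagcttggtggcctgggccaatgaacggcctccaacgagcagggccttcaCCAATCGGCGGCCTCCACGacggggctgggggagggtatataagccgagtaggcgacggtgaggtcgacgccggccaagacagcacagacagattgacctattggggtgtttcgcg

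Immediate early genes are switched on by serum within minutes. Of 33 tested without serum, JUN and JUND were called higher and none was called lower. In this list 25 of 33 lay above 0, with a median log2 fold change of 0.15. The groups did not overlap for 9 members higher in dTAG-S0 and 2 lower, against 8.5% and 9.23% of all genes tested. JUND was not called with spike-in library sizes or without replicate 1 or 3 of dTAG-S0. JUN, a subunit of the AP-1 factor, was at 9.70, 9.95 and 9.86 CPM in DMSO-S0 and 15.4, 14.9 and 17.1 CPM in dTAG-S0 (log2 0.69 ± 0.10, adjusted p = 0.000116). The 3 DMSO libraries lay close together and all dTAG libraries were above them. FOS, EGR1 and ATF3 had log2 fold changes of -0.15, 0.08 and 0.29 and were not called. Of 16 genes of ERK feedback and output only the phosphatase DUSP5 rose (0.30), and of 12 plasminogen and matrix genes PLAU and its receptor PLAUR rose (0.49 and 0.57). The call of DUSP5 was lost without dTAG-S0 replicate 3, and that of PLAU in 4 fits, with spike-in library sizes and without DMSO-S0 replicate 2, dTAG-S0 replicate 1 or dTAG-S0 replicate 3. Of 10 NRF2 targets HMOX1, which breaks down haem, and SLC7A11 rose. HMOX1 was at 5.62, 6.19 and 6.23 CPM against 10.5, 8.36 and 11.7 CPM (log2 0.74 ± 0.14, adjusted p = 0.00526). The growth factor carrier FGFBP1, in no list, was at 3.07, 3.58 and 2.6 CPM against 6.86, 6.06 and 7.70 CPM (log2 1.17 ± 0.16, adjusted p = 4.43e-05).

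Among the genes that KAP1 works with, 3 of 19 tested fell, against 0.451% of all genes tested, and none rose. ATF7IP, which stabilises SETDB1, was at 153, 149 and 161 CPM in DMSO-S0 and 116, 120 and 114 CPM in dTAG-S0 (log2 -0.41 ± 0.06, adjusted p = 6.44e-05). MORC2, an ATPase that compacts chromatin with the HUSH complex, was at 42.1, 38.2 and 39.8 CPM against 27.4, 27.3 and 28.5 CPM (log2 -0.52 ± 0.08, adjusted p = 0.000237). TASOR, a HUSH subunit, was at 141, 142 and 138 CPM against 117, 119 and 114 CPM (log2 -0.27 ± 0.05, adjusted p = 0.00954), and it overlaps CCDC66 on the other strand. In all 3 genes every dTAG library lay below every DMSO library. With spike-in library sizes TASOR was not called (adjusted p = 0.294), which leaves 2 of the list. The other HUSH subunits MPHOSPH8 and PPHLN1 had log2 fold changes of 0.07 and -0.01, SETDB1 of -0.10, and the list had a median of -0.06. None of 19 genes of P-TEFb, 7SK and elongation control was called, with a range of -0.09 to 0.22, nor was any of 5 tested genes of the ligase machinery that the ligand uses, CRBN among them (-0.19).

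Zinc finger, imprinted and germline genes are classes known as KAP1 targets, and their shares of calls are to be read against the 1.31% of all genes. None of 142 tested zinc finger genes on chromosome 19 was called, and their median log2 fold change was -0.02. Of 238 zinc finger genes on other chromosomes ZNF692 rose (0.39), while ZNF214, ZSCAN31 and ZNF462 fell by 0.57, 0.40 and 0.36, so 4 of 238 were called. All 4 lost their call with spike-in library sizes (adjusted p up to 0.154), and ZNF214 also without replicate 1 or 3 of DMSO-S0 or of dTAG-S0. ZNF214 overlaps ZNF215 and ZSCAN31 overlaps ZKSCAN3, each on the other strand. Of 19 tested imprinted genes PHLDA2 rose (0.53), a call lost without replicate 1 or 3 of dTAG-S0. Only 3 of 27 germline genes and 2 of 53 clustered protocadherins passed the count filter, and none was called. Chromosome 19 held 6 of the 112 higher genes (5.36%) and 4 of the 59 lower genes (6.78%), against 7.06% of all genes tested. Transposon transcripts were not counted in the table.

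The largest falls were in genes of low level. GPR176, an orphan receptor, was at 1.96, 2.20 and 2.16 CPM in DMSO-S0 and 1.22, 0.953 and 0.791 CPM in dTAG-S0, from 19 to 48 counts (log2 -1.16 ± 0.29, adjusted p = 0.0437). Its call was lost in 9 of 21 alternative fits, with an adjusted p of up to 0.157. GPR15, a receptor known for homing of T cells to the colon, was at 5.99, 6.10 and 4.37 CPM against 3.20, 2.64 and 2.998 CPM (log2 -0.88 ± 0.16, adjusted p = 0.00383), and it overlaps another gene on the other strand. FJX1 (chromosome 11, 35618419 to 35620868), a relative of the fly planar polarity gene four-jointed, was at 19.5, 18.6 and 19.1 CPM against 10.5, 10.1 and 11.2 CPM (log2 -0.83 ± 0.10, adjusted p = 1.85e-05). It had the smallest p among lower genes, and its groups were far apart. FER1L6, DHRS2, FRMPD2, ABCA12, TLL1 and FIGNL2 fell by 0.59 to 0.95, and lack of overlap was a condition for naming them. Of these, FER1L6, DHRS2, TLL1 and FIGNL2 lost their call in 5 to 8 of 21 alternative fits. ABCA12 was not called with spike-in library sizes or without DMSO-S0 replicate 2 or dTAG-S0 replicate 3.

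BMP signalling raises ID genes through SMAD factors. Of 10 tested genes of the BMP and TGF-beta list, ID2 and SMAD9 fell, against 0.451% of all genes tested, and none rose. In the list 8 of 10 lay below 0, with a median of -0.18. The highest member stood at 2.36, the highest value of all genes tested, and was not called. ID2, an inhibitor of basic helix-loop-helix factors, was at 155, 150 and 134 CPM in DMSO-S0 and 108, 101 and 102 CPM in dTAG-S0 (log2 -0.50 ± 0.06, adjusted p = 3.83e-05). SMAD9 was at 14.3, 16.1 and 15.6 CPM against 10.1, 11.2 and 9.54 CPM (log2 -0.59 ± 0.10, adjusted p = 0.00218). Both were lower in every dTAG library. ID1, ID3 and SMAD7 had log2 fold changes of -0.13, -0.23 and -0.38 and were not called.

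Of 13 Wnt genes tested, the secreted inhibitors NOTUM and DKK1 fell by 0.78 and 0.37 and SOX9 rose by 0.32. DKK1 and SOX9 were not called with spike-in library sizes or without DMSO-S0 replicate 1. DKK1 was also not called without DMSO-S0 replicate 2 or dTAG-S0 replicate 1, nor SOX9 without dTAG-S0 replicate 3. NOTUM was at 9.12, 6.38 and 9.32 CPM against 5.27, 4.07 and 4.95 CPM, without overlap, whereas DKK1 overlapped, at 49.8, 51.2 and 36.4 CPM against 32.5, 34.9 and 36.8 CPM. Of 29 p53 targets only DDB2, a sensor of ultraviolet DNA damage, fell, at 93.2, 88.4 and 79.9 CPM against 66.2, 65.0 and 64.9 CPM (log2 -0.39 ± 0.06, adjusted p = 0.000666). The list had 25 of 29 members below 0 and a median of -0.13, and other fits called 1 to 5 of them. CDKN1A and MDM2, its best known members, had log2 fold changes of -0.10 and -0.08. Of the actin and YAP genes, AMOTL2 and AXL fell by 0.39 and 0.34. Of 25 interferon genes IFIT1 fell by 0.60, in a gene that overlaps LIPA, and the list had a median of -0.01. SESN3 fell by 0.38 among 17 starvation targets of FOXO and MondoA. RPS27L, which overlaps LACTB, fell by 0.34, the only call among 76 genes listed by a ribosomal protein name. Of those 76, 61 lay below 0 with a median of -0.06, and 1.31% of all genes tested were called. AXL, SESN3 and RPS27L were not called with spike-in library sizes (adjusted p up to 0.239).

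Several lists had no call. These were 13 heat shock chaperones (median log2 fold change 0.17), 32 proliferation genes (0.01), 7 EGF receptor ligands (0.05), 41 replication-dependent histones (-0.05) and 13 mitochondrially encoded genes (-0.06).

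**Figure D4:**
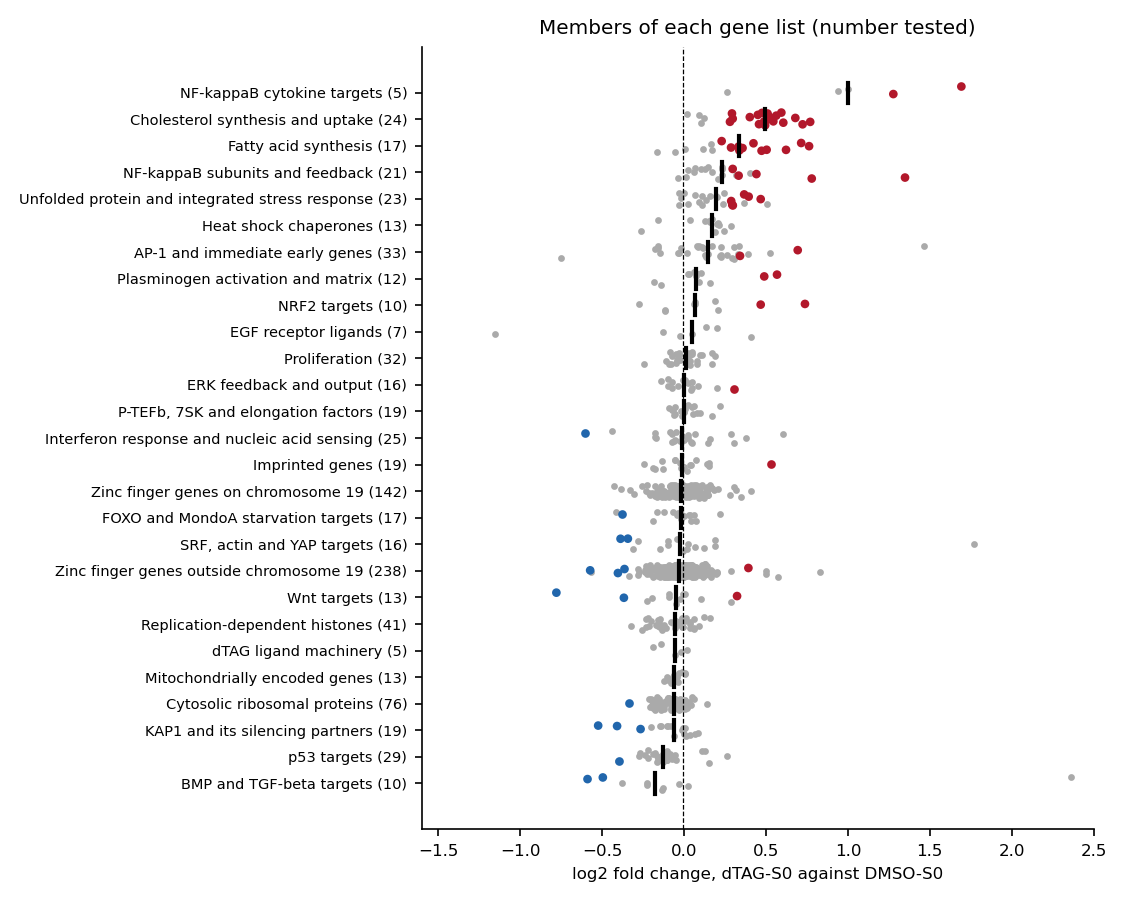
Log2 fold change of dTAG-S0 against DMSO-S0 for each tested member (points) of the lists with at least 5 tested members, with list medians as black bars and the median of all genes (-0.01) as a dashed line. Red and blue points were called higher and lower, and vertical scatter within a row has no meaning. Cholesterol synthesis and uptake is the row with most red points (20 of 24), and the BMP and TGF-beta row has the lowest median (-0.18).

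The serum libraries share no sample with this comparison. They entered the count filter, the factor of unwanted variation and the shared spread of the fit that called these genes. Their second reading of the same genes is therefore not independent of the calls. In a fit of the 6 serum libraries alone, 107 of the 112 higher and 58 of the 59 lower genes had the same sign, and 92 and 48 of them had an unadjusted p under 0.05 with the same sign, against 11.3% of all genes tested in either direction. The median log2 fold change there was 0.29 for the higher and -0.35 for the lower genes, and the change was smaller than without serum for 86 and 44 of them. The genes were chosen for their change without serum, so a smaller change in other libraries follows in part from that choice. In the joint fit BIRC3 had log2 fold changes of 1.35 without and 1.24 with serum, and ACSS2 of 0.76 in both states.

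The difference between the dTAG effects with and without serum passed the test for 5 genes (0.0382%), CXCL8, JUN, INSIG1, ATG12 and ATF3. The first 3 rose without serum. With serum, CXCL8 was at 37.0, 34.7 and 35.0 CPM in DMSO-S30 and 32.0, 36.7 and 39.5 CPM in dTAG-S30, so the groups overlapped, and its log2 fold change was -0.06. JUN was at 185, 173 and 200 CPM against 150, 151 and 177 CPM, a log2 fold change of -0.25 with overlapping groups. INSIG1 was at 390, 391 and 411 CPM against 467, 442 and 413 CPM, a log2 fold change of 0.15, and its lowest dTAG library was close to its highest DMSO library. ATG12, which is needed for autophagosome formation, did not pass the test without serum, at 70.9, 70.1 and 68.3 CPM against 70.7, 72.0 and 69.2 CPM. With serum it was at 89.7, 91.2 and 95.8 CPM against 65.4, 65.2 and 62.6 CPM. It overlaps AP3S1 on the other strand. ATF3, a stress and serum response factor, was at 16.4, 14.4 and 16.1 CPM against 18.9, 18.1 and 20.3 CPM without serum (adjusted p = 0.134). With serum its groups stood in the opposite order, at 1025, 991 and 1109 CPM against 843, 727 and 779 CPM.

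**Figure D5:**
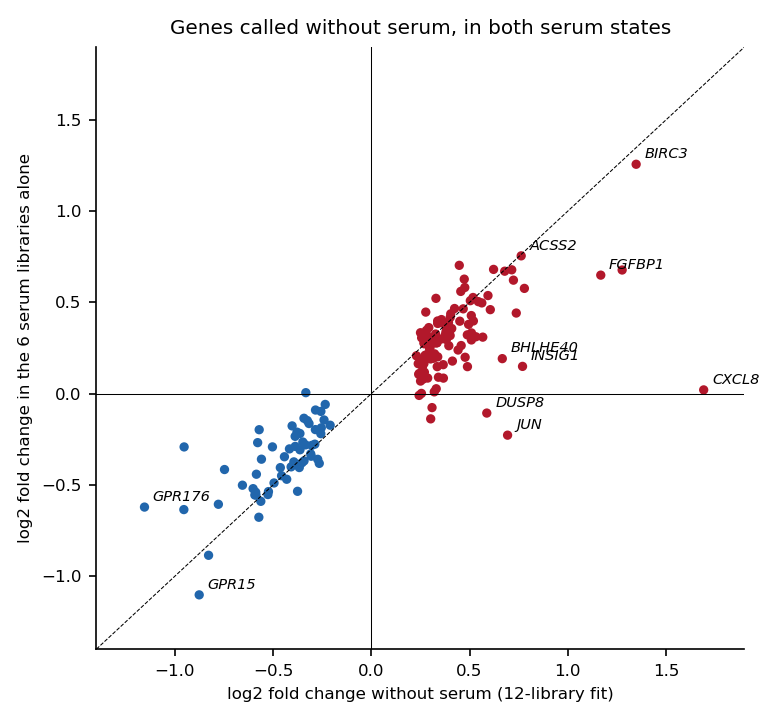
Log2 fold change of dTAG against DMSO without serum (horizontal) and in the 6 serum libraries fitted alone (vertical) for the 171 genes called without serum, red for higher and blue for lower. The dashed line marks equal change. Most points lie in the quadrants of equal sign (107 of 112 and 58 of 59), and CXCL8, JUN and INSIG1 lie far below the line.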

How the data were processed

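RNA was extracted, depleted of ribosomal RNA and sequenced with ERCC spike-ins. Per the labels and the study's methods, the authors trimmed reads (Trim Galore 0.6.4), mapped them to hg38 with STAR and counted them with featureCounts (Subread 1.6.3) over whole protein-coding genes. The deposited table holds raw counts for 19901 genes and 92 spike-ins, and every sample column was used. Symbols and positions came from GENCODE, matching 19368 genes, and 48 symbols are held by several identifiers. Genes reaching 10 counts or more in 6 or more libraries were scaled by the upper quartile of genes, 1 factor of unwanted variation was estimated from 69 spike-ins, and a single model with 4 groups was fitted with edgeR 4.0.16 in R 4.3.3 (quasi-likelihood test, Benjamini-Hochberg over all genes tested, called at 0.05). Normalised CPM is counts over scaled library size. The script was tested on simulated data. Depth limits genes of low count. The study's methods call the 3 libraries of a group biological replicates, all of 1 clone.

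Groups came from the sample titles. Named genes were TRIM28, the 12 largest changes and 6 smallest p in each direction among called genes with a mean of at least 20 counts and no overlap, genes called in the interaction, and called list members. The genes, lists and rule were chosen with earlier results of these data known. Same-numbered libraries did not deviate together (correlations -0.071 to 0.079), so replicate numbers were not used as a block. Alternatives were TMM or spike-in scaling, 0 or 2 factors, edgeR's likelihood ratio test, DESeq2 1.42.0, no count filter, a replicate block, the 6 libraries without serum alone, and leaving out each library. The spike-in and DESeq2 fits and the fits of 6 libraries used no factor of unwanted variation. The calls per list under these were counted after seeing the data. Single values of some list members are not reported here, while the counts and medians of each list cover all tested members.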

Additional observations from a re-analysis of the deposited data

Results flagged for a closer look

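In 5 genes the effect of dTAG with serum differed from that without serum in the test of the difference itself, edgeR's quasi-likelihood test of the interaction over all 13093 genes tested. The difference, as the log2 fold change with serum minus that without, was -1.76 for CXCL8, -0.94 for JUN, -0.62 for INSIG1, -0.54 for ATG12 and -0.70 for ATF3. The adjusted p-values were 2.62e-06 for CXCL8, 0.000362 for JUN, 0.000837 for INSIG1, 0.0025 for ATG12 and 0.00604 for ATF3. In all 5 genes the value was lower with serum. At an unadjusted p under 0.05 there were 414 genes. The cause of these differences was not tested.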

How the results depend on the processing

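The 171 calls (112 higher, 59 lower) became 76 (61 higher, 15 lower) with spike-in library sizes, 287 (122 lower) with the likelihood ratio test, 257 (176 higher) with DESeq2 and 275 (130 lower) with no count filter. The 6 libraries without serum alone gave 101 lower. The spike-in, DESeq2 and 6-library fits also left out the factor of unwanted variation. Leaving out that factor by itself gave 202 calls (127 higher, 75 lower). Leaving out each library gave 110 to 295 calls, 73 to 181 higher and 37 to 118 lower. The total moved by over 1.5 times to 110 without replicate 3 of dTAG-S0, to 284 without its replicate 2, to 281 without DMSO-S30 replicate 1 and to 295 without replicate 3 of dTAG-S30, and the lower count also without DMSO-S0 replicate 3 (116) and dTAG-S0 replicate 1 (38). The share of higher calls, 65.5%, was 80.3% with spike-in library sizes, 52.7% with no count filter and 52.1% without DMSO-S0 replicate 3. Without DMSO-S0 replicate 1, which stands apart, 143 genes were called and 20 of the cholesterol list. The interaction, 5 genes, gave 8 with TMM, 3 with spike-in sizes, 9 with 2 factors, 10 with the likelihood ratio test, 22 with DESeq2, 29 with no count filter and 5 to 14 with a library left out. With the replicate block 173 genes were called (116 higher, 57 lower), and the cholesterol count stayed at 20. The cause of these shifts was not tested.

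Of 79 named called genes, 45 were called in every alternative and left-out fit. Over 1659 such fits none changed direction, and 117 lost the call. Of uncalled genes, the log2 fold change of ATG12 ranged from -0.000716 (without DMSO-S0 replicate 3, the only fit of opposite sign) to 0.038 and the log2 fold change of TRIM28 from -0.11 to 0.0023 (without dTAG-S0 replicate 2, the only fit of opposite sign) with a library left out. Of 609 refitted list medians 40 moved beyond the spread. Genes of few counts, CXCL1 and GPR176 among them, are limited by depth.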
